A study of Capra hircus with 4 samples.

Results

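PRPSAP1 and LOC102184716 are the 2 genes of the predicted target list that the deposited annotation places in the pentose phosphate pathway, and they were described together with the long non-coding RNA (lncRNA) transcripts around them. A transcript was taken when its listed locus lay within 100 kb of the gene locus, measured between nearest edges. This gave 10 lncRNA transcripts around PRPSAP1 and 36 around LOC102184716, together 46 of the 226416 in the table of all lncRNAs. The genes were chosen by the authors' comparison, in that the target list holds only genes near a lncRNA whose p in this comparison was under 0.05, and by the pathway annotation. Everything drawn from that comparison is therefore given as a description, and the adjusted p values printed for the 2 genes are not independent support.

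The tissue was endometrium, the lining of the uterus, of multiparous Xinong Saanen dairy goats of 24 months of age that had been brought into synchronized estrus and mated naturally. Pre-receptive endometrium (2 libraries) came from gestational day 5 and receptive endometrium (2 libraries) from gestational day 15, with 20 goats in all and 10 for each stage. The labels do not say whether a library held 1 goat or several, so the spread behind any p can be biological or technical. The authors' comparison sets libraries called T against libraries called C, and no label or header says which letter is which stage, so directions are given as T against C. The columns of values for single libraries carry names that match no sample label and were not used, which leaves no level per library, no error between replicates, no depth and no check of tissue markers. In whole tissue, fewer cells of a type and less RNA per cell cannot be told apart.

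Phosphoribosyl pyrophosphate (PRPP) is the activated form of ribose from which cells build purine, pyrimidine and NAD nucleotides. PRPP synthetases make it from ATP and ribose 5-phosphate, the sugar phosphate that the pentose phosphate pathway supplies. PRPSAP1 encodes a protein that associates with these synthetases in mammals, was first purified with them from rat liver, and is regarded as a regulatory rather than a catalytic subunit.

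At PRPSAP1, 3 lncRNAs immediately beside the gene and 1 transcript of the gene itself were all lower in T in the authors' deposited table. The gene (identifier 102185951) was listed on chromosome 19 at 54234114 to 54256856, in the coordinates of the tables, for which the sources used here name no genome build. Its 3 lncRNAs lay in a row below its lower edge, with 399 bp between TCONS_00181755 and TCONS_00181756, 114 bp between TCONS_00181756 and TCONS_00181757, and 279 bp between TCONS_00181757 and PRPSAP1. They spanned 4445 bp from the first start to the last end, of which their own loci took up 3932 bp. The tables give no strand, so it is not known whether this side is upstream or downstream of the gene.

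TCONS_00181755, the farthest of the 3, lay at 54229390 to 54230776, and its value in T was 7.38-fold lower than in C (log2 change -2.88, p = 0.00125, q = 0.288 in the authors' deposited table). TCONS_00181756 lay at 54231175 to 54232489 and was 4.03-fold lower (log2 change -2.01, p = 0.03665, q = 0.831 in the authors' deposited table). TCONS_00181757, the nearest, lay at 54232603 to 54233835 and was 4.81-fold lower (log2 change -2.27, p = 0.02555, q = 0.703 in the authors' deposited table). The 3 changes thus had the same direction and did not follow the order of distance, since the lncRNA in the middle had the smallest. All 3 were above 0 in both sets, and none had a q under 0.05, which the authors' deposited table gave to 12 of its 668 calls (0.0053% of all listed lncRNAs).

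**Figure D1:**
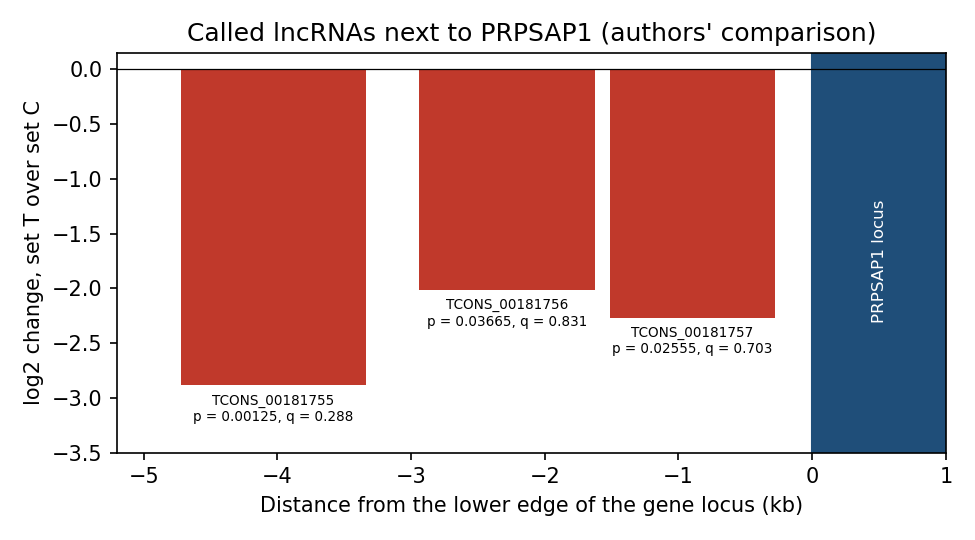
The 3 called lncRNAs next to PRPSAP1, with distance from the lower edge of the gene locus in kb on the horizontal axis and the log2 change of set T over set C in the authors' deposited table on the vertical axis. Each bar covers the listed locus of 1 lncRNA, and the bars reach -2.88, -2.01 and -2.27 from left to right; no error is drawn because none was available.

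A call here is an entry of the differential lncRNA list that the authors deposited. It held 668 of the 226416 listed transcripts (0.295%), 267 of them lower in T (0.118%). How many of the listed transcripts were tested is not known here, so these are not shares of tested transcripts. The median q of the calls was 0.551 in the authors' deposited table. Around PRPSAP1 3 of 10 transcripts were calls, all lower, a count that the choice of the gene fixes in part. Among the 237 lower calls that were above 0 in both sets, whose median log2 change was -1.94, 41 were at least as low as TCONS_00181755, 81 as TCONS_00181757 and 111 as TCONS_00181756. By p, 46 of the 668 calls were at or under the value of TCONS_00181755, whereas 495 and 574 were at or under those of TCONS_00181757 and TCONS_00181756. The nearest other call on the chromosome, TCONS_00187385, lay 2456517 bp away and was higher in T. How far apart calls usually lay was not measured, so this distance marks no isolation of the 3 lncRNAs.

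**Figure D2:**
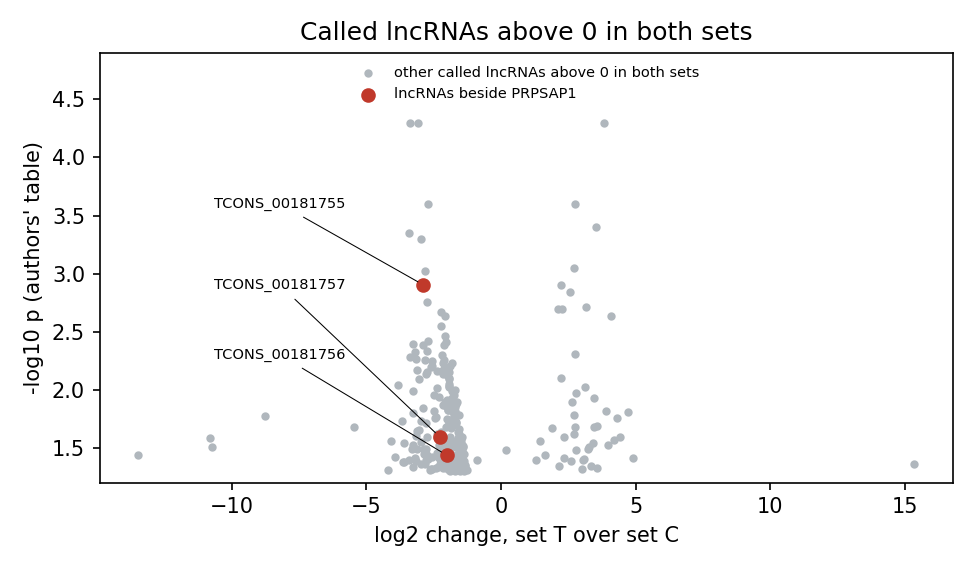
Called lncRNAs above 0 in both sets, with the log2 change of set T over set C on the horizontal axis and -log10 of the authors' p on the vertical axis. Grey points are the other calls and red points the 3 lncRNAs beside PRPSAP1, at log2 changes of -2.88, -2.27 and -2.01; calls listed at 0 in one set, among them TCONS_00418495, have no finite change and are not drawn.

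Of the 2 PRPSAP1 transcripts in the target list, TCONS_00181758 was lower in T. Its p of 5e-05 was the smallest that the authors' deposited table lists for any target transcript. Its Benjamini-Hochberg adjusted p over all 816 target transcripts with a direction was 0.00583. The other transcript, TCONS_00181759, was also listed as lower, but the authors' deposited table gives it a p of 1, a value that 549 of the 816 transcripts shared and that no header explains. The size of the change of either transcript is not known here, because the tables used give a direction and a p only. For target transcripts, the reading of that direction as T against C could therefore not be checked against a size of change. In all, 7 target transcripts had the smallest p, and 7 (0.858%) were lower with an adjusted p under 0.05. The next p in the authors' deposited table was 0.0003. Whether 5e-05 is a lower limit of the listed p values is not known here, and the adjusted p of TCONS_00181758 rests on it.

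The same 3 lncRNAs were paired with 4 further genes, LOC102185500, LOC102185776, QRICH2 and UBALD2. QRICH2 encodes a protein known in mice for its part in building the sperm flagellum. It began 1778 bp beyond the upper edge of PRPSAP1, and the authors' deposited table lists both of its transcripts as lower with p = 1. For UBALD2, the authors' deposited table lists 1 transcript as higher with p = 1 and 1 as lower with p = 0.89955. LOC102185500 and LOC102185776 shared a listed locus at 54201884 to 54218178, and the authors' deposited table lists their 3 transcripts as lower with p = 1. RefSeq annotates LOC102185500 and LOC102185776 themselves as lncRNA genes in the ARS1.2 assembly, and it places the 5 genes in the same order along chromosome 19. As 6 of the 7 transcripts of these neighbours had the unexplained p of 1, it is not known whether they were tested, and no contrast with PRPSAP1 can be drawn from them.

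**Figure D3:**
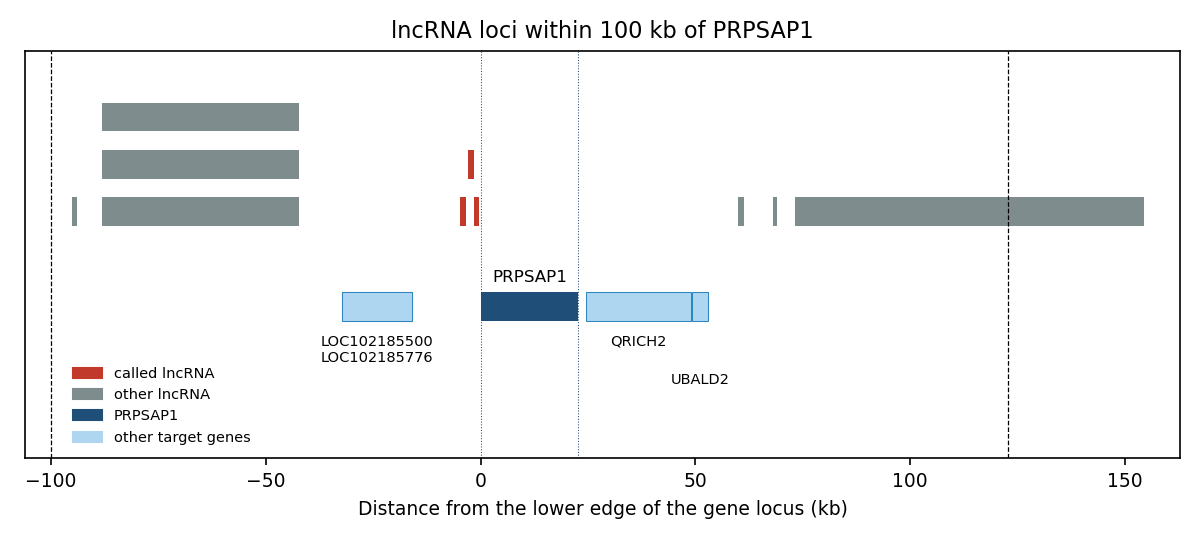
Map of the listed lncRNA loci within 100 kb of PRPSAP1, with distance from the lower edge of the gene locus in kb on the horizontal axis and rows used only to separate overlapping loci. Red bars are the 3 called lncRNAs, grey bars the 7 others, the dark bar is PRPSAP1, light bars are the other target genes of the same lncRNAs, and dashed lines mark 100 kb from the gene; the red bars are the nearest lncRNA loci on either side.

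The remaining 7 lncRNA transcripts around PRPSAP1 were not calls and lay between 37049 and 93945 bp from the gene. None of the 10 overlapped the gene, and all were intergenic, class code u, as were 98.3% of all listed lncRNAs. Below the gene, TCONS_00187637, TCONS_00181750 and TCONS_00187639 carried different gene identifiers but the same listed locus of 45825 bp, 42266 bp from PRPSAP1. Where transcripts share a listed locus, its length need not be that of each transcript, and 28.7% of all listed lncRNAs had such a locus. Above the gene, TCONS_00181763 lay at 37049 bp, TCONS_00181764 at 45381 bp and TCONS_00181768 at 50465 bp. The locus of TCONS_00181768, at 81133 bp the longest of the 10, ran on past the limit of 100 kb. The outermost member was TCONS_00181742, at 93945 bp below the gene, and the nearest transcripts outside the limit were TCONS_00187635 at 107087 bp below and TCONS_00187657 at 144463 bp above. The called lncRNAs were thus the 3 nearest of the 10, and the next nearest was TCONS_00181763 at 37049 bp.

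LOC102184716 differed from PRPSAP1 in the direction and the distance of its called lncRNA. The gene (identifier 102184716) was listed on chromosome 7 at 91926024 to 91927161, a locus of 1137 bp against 22742 bp for PRPSAP1. RefSeq annotates it in the ARS1.2 assembly as a transcribed pseudogene, that is, a gene copy that gives RNA but no functional protein, and gives it no other name. Its single called lncRNA, TCONS_00418495, lay at 91983218 to 91983717, 56057 bp above the gene. It was higher in T and listed at 0 in C, so it has no finite fold change. The authors' deposited table gave it a p of 0.00545 and a q of 0.457. A value of 0 in C was the rule among higher calls, 354 of 401 (88.3%). The single target transcript of the gene, TCONS_00429845, was listed as higher, with an adjusted p of 1 (p = 0.558 in the authors' deposited table). The direction of the lncRNA and of the gene transcript was therefore the same, but for the gene it rests on a p far above the threshold.

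Around LOC102184716, 1 of 36 lncRNA transcripts was a call, where higher calls made up 0.177% of all listed transcripts. Every target gene had at least 1 call within 100 kb, which is how it entered the list. The count of 1 is therefore the smallest that the choice of the gene allows, and it shows no excess over that share. Of the 36, 12 lay below the gene and 24 above, and none overlapped it. The nearest below were TCONS_00418486 at 3073 bp, TCONS_00418485 at 8742 bp and TCONS_00429842 at 24926 bp. The nearest above were TCONS_00418487 and TCONS_00429847, which shared a locus at 4687 bp, followed by TCONS_00429849 and TCONS_00418488, which shared one at 16730 bp. In all, 17 transcripts lay within 50 kb of the gene, nearer than TCONS_00418495, and none of these 17 was a call. The next transcript below TCONS_00418495, TCONS_00418494, lay at 52328 bp from the gene, and the next above it, TCONS_00429855, at 61661 bp. The nearest other call on chromosome 7, TCONS_00419352, was 7521655 bp away. The outermost members were TCONS_00429861 at 96215 bp above and TCONS_00429833 at 89392 bp below the gene, and the nearest outside were TCONS_00418474 at 101712 bp and TCONS_00418503 at 102038 bp.

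**Figure D4:**
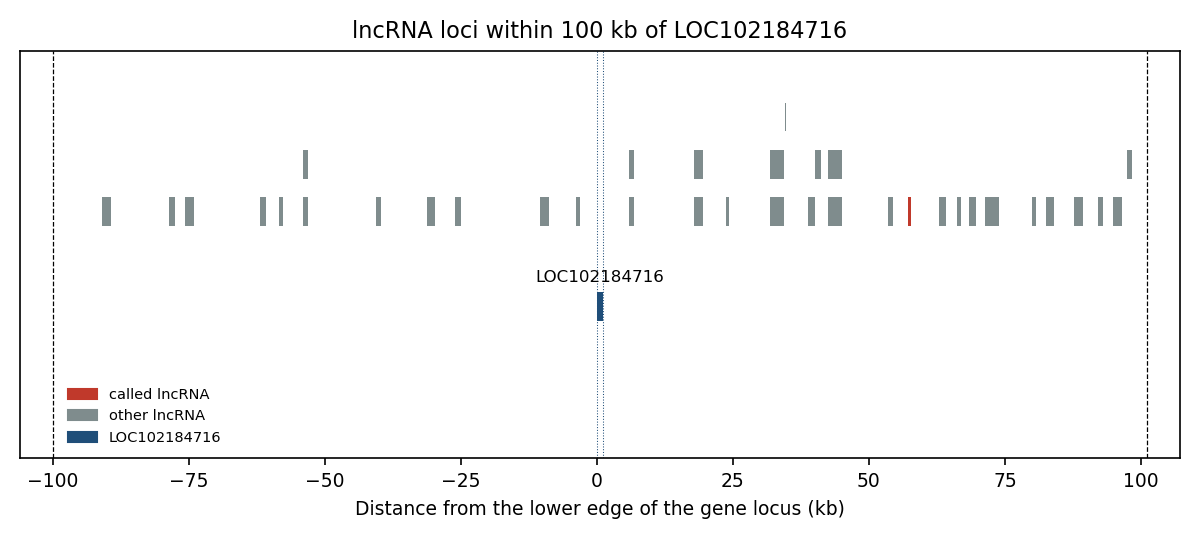
Map of the listed lncRNA loci within 100 kb of LOC102184716, with distance from the lower edge of the gene locus in kb on the horizontal axis and rows used only to separate overlapping loci. The red bar is the called lncRNA TCONS_00418495, 56057 bp from the gene, grey bars are the 35 others, the dark bar is LOC102184716, and dashed lines mark 100 kb from the gene; lncRNA loci lie on both sides of the gene and nearer to it than the called one.

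The flanks of the 2 genes also differed in how densely lncRNAs were listed. Over all 387 target genes, the number of lncRNA transcripts within 100 kb of the locus ran from 5 to 54 with a median of 20. PRPSAP1, with 10, had more than 38 of these genes and fewer than 334, whereas LOC102184716, with 36, had more than 352 and fewer than 28. Counting each listed locus once left 8 around PRPSAP1 and 31 around LOC102184716. The longest stretch between neighbouring lncRNA loci was 60070 bp at PRPSAP1, which holds the gene itself with QRICH2 and UBALD2, and 14416 bp at LOC102184716. The counts include lncRNAs that overlap a gene and are not scaled to the length of the gene locus. The median length of the distinct loci was 1350 bp at PRPSAP1 and 1199 bp at LOC102184716, but the longest were 81133 and 45825 bp at PRPSAP1 against 2683 bp at LOC102184716. The locus of TCONS_00418495 was short, at 499 bp, and 161 of the 668 calls were no longer than that.

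**Figure D5:**
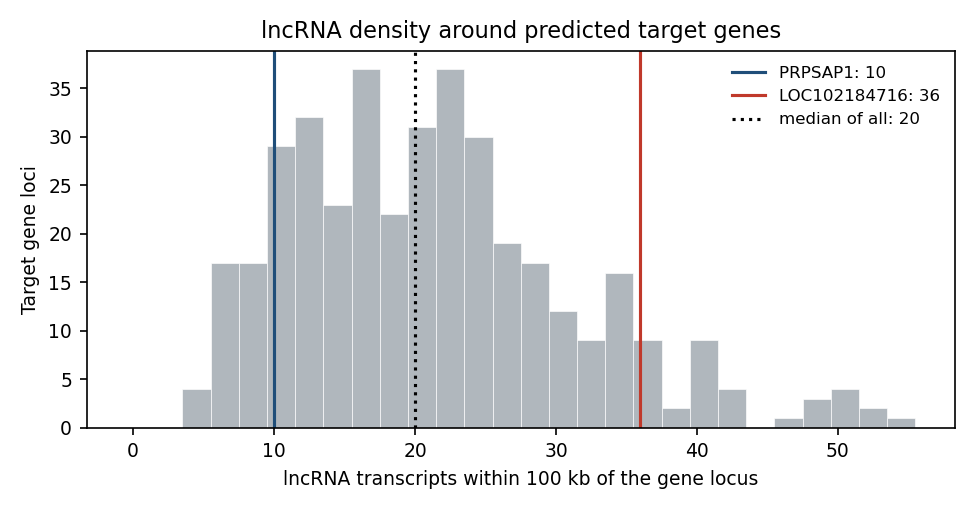
Histogram of the number of lncRNA transcripts within 100 kb of the gene locus (horizontal axis) over the 387 target genes (vertical axis). A locus that several target genes share is counted once for each of them. Vertical lines mark PRPSAP1 at 10, LOC102184716 at 36 and the median of all target genes at 20, so the 2 genes lie on opposite sides of the median.

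A called lncRNA lay nearer to the gene than the 279 bp of PRPSAP1 for 46 of the 387 target genes, and nearer than the 56057 bp of LOC102184716 for 340. Only PRPSAP1, DLG2 and LOC102175095 had at least 3 calls within 10 kb of the locus. DLG2 and LOC102175095 share a locus of 958730 bp with 4 such calls, 3 of them lower in T, and neither gene had a target transcript with p under 0.05. Within the wider limit of 100 kb, 24 of the 387 target genes had at least 3 calls, and at 18 of these all were lower. These 18 are genes and not separate runs of calls, since PRPSAP1 and its 4 neighbours among them share the same 3 calls. How many separate runs they make was not counted. The 18 also held ANPEP and NINL, each with 3 lower calls and a target transcript at the same smallest p. Runs of lower calls were therefore not particular to PRPSAP1. Its 3 calls were neighbours within 4445 bp, so they are not independent observations. The deposited table gave all 3 the distance class of 10 kb, including TCONS_00181757 at 279 bp.

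The coding potential scores of the flanking lncRNAs were like those of the table as a whole. The CPC score, which is negative for transcripts judged non-coding, had a median of -1.15 around PRPSAP1 and -1.14 around LOC102184716, against -1.13 over all listed lncRNAs. The CNCI score, a second measure built from the sequence composition, had medians of -0.0516 and -0.0215, against -0.0328 overall. The 3 called lncRNAs of PRPSAP1 had CPC scores of -1.02, -1.24 and -1.14, and TCONS_00418495 had -1.21. No listed lncRNA scored above -1 by CPC or above -0.00041 by CNCI, and 26437 transcripts had that highest CNCI score. The flanking lncRNAs share these upper bounds with all listed lncRNAs, which fixes the likeness of the scores in part. Whether the scores served to select the table is not stated.

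The deposited annotation gave the 2 genes 2 GO terms and 2 KEGG pathways in common. The shared GO terms were ribose phosphate diphosphokinase activity, which is the reaction of the PRPP synthetases, and magnesium ion binding, and the shared pathways were pentose phosphate pathway and purine metabolism. PRPSAP1 carried 1 further GO term, nucleotide biosynthetic process. LOC102184716 carried 5 further terms, among them ATP binding, kinase activity and nucleoside metabolic process. The annotation as a synthetase thus stands beside the RefSeq class of a transcribed pseudogene for LOC102184716 and beside the known regulatory role for PRPSAP1.

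The pentose phosphate pathway had p = 0.00887 in the authors' deposited table, the second smallest of 146 pathways, with a Benjamini-Hochberg adjusted p of 0.52. It was used to choose the genes and so supports nothing here. The pathway rested on the 4 called lncRNAs of these 2 genes and on no other gene annotated to it. Of the 28 pairs of a target transcript and a lncRNA that the authors' deposited table lists under the pathway, 7 belonged to PRPSAP1 and LOC102184716. The other 21 belonged to the 4 neighbours of PRPSAP1, none of which is annotated to the pathway. Ribose phosphate diphosphokinase activity had the same 4 lncRNAs among 200 with a GO term (2%), with p = 0.000451 in the authors' deposited table. The background there held 107 of 60755 (0.176%), in a unit that no header states, so the shares may not be comparable. The GO term rests on the same lncRNAs and genes as the pathway, so it restates the choice of the genes and supports nothing either. Nucleotide biosynthetic process rested on the 3 lncRNAs of PRPSAP1 alone. These counts treat neighbouring lncRNAs of 1 gene as separate, so 3 of the 4 come from a single place in the genome.

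The lists of other genes of PRPP metabolism were too short to say more. Of all 28911 RefSeq genes, 353 (1.22%) were predicted targets, so a short list is likely to hold none. Of 30 genes fixed for the pentose phosphate pathway and PRPP synthesis, 28 had a RefSeq symbol in goat and 1, PRPSAP1, was a target. Of 21 genes for the use of PRPP in nucleotide synthesis, 18 had a symbol and 0 were targets. The second associated protein gene PRPSAP2 and the synthetase genes PRPS2 and PRPS1L1 were found by symbol and were not targets. The synthetase gene PRPS1, also on the fixed list, was not found by symbol, so whether it was a target is not known. Because the target list was built from the calls, being absent from it says nothing about the level of a gene's own RNA.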

How the data were processed

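The deposited values used are per transcript or per term and not per library. Per the file headers, the CPC and CNCI score of each lncRNA, the log2 change of set T over set C with its p-value and q-value, and the predicted target pairs are the authors'. The term and background numbers in other tables were also deposited by the authors, and no header states that the background counts lncRNAs. TopHat, TopHat2, Cufflinks and Cuffdiff are named in the submitters' processing notes, without role or version. Library depth is unknown here. In all, 6 columns of FPKM values, 4 for single libraries and 2 for sets, matched no label. They were not used, except that the first rows of the set columns were read for the direction of the ratio. That the ratio is T over C, and that an infinite positive change stands for 0 in C, was read from the first rows in a first look at the set columns; the header alone does not state it. This reading was applied to all 668 calls, and the directions and the statements of values at 0 or above 0 rest on it. The planned description of the FPKM columns by distance was not made, because they matched no label.

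Gaps are distances between the nearest edges of listed loci. The p-values of 816 target transcripts were adjusted by the Benjamini-Hochberg method at a threshold of 0.05. Gap and adjustment steps were tested on simulated data. Gene identifiers were matched to RefSeq ARS1.2 for names, gene kinds and order only (353 of 387 target genes matched). No sequence is shown, since the tables used hold none. Named flanking transcripts were all calls, the nearest 3 others on each side with ties, and those at the limit of 100 kb. Also named were the neighbours of TCONS_00418495 and, at PRPSAP1 only, the longest transcript. QRICH2, UBALD2 and the like are the targets that share a lncRNA. Genes and lists were chosen with earlier results of these data known. Alternatives were narrower windows, a q threshold, other adjustments and, added after seeing the data, distinct loci. Python 3.11.15, numpy 2.4.6, pandas 2.3.3 and matplotlib 3.10.9 were used.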

Additional observations from a re-analysis of the deposited data

How the results depend on the processing

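No paired analysis was possible because no column used belongs to a single library, and for the same reason no library could be left out. With a q under 0.05 in place of the authors' list of calls, the count of called lncRNAs went from 3 to 0 at PRPSAP1 and from 1 to 0 at LOC102184716; by the unadjusted p in the authors' deposited table all 4 are under 0.05. Within 50 kb the count stayed at 3 for PRPSAP1 and was 0 for LOC102184716, because TCONS_00418495 lies farther away. The adjusted p of the PRPSAP1 transcript TCONS_00181758 was 0.00583, and 0.00191 when adjusted over the 267 target transcripts with p under 1, or 0.0408 by Bonferroni. For the transcript of LOC102184716 the lowest of these was 0.752. The genes were chosen through the same comparison, so none of these values is support. Narrower windows held 8 (50 kb) and 3 (10 kb) lncRNA transcripts around PRPSAP1, and 17 and 4 around LOC102184716. What depth limits is not known here, since depth is unknown.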

Other observations

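LOC102184716 was one of several target genes that RefSeq does not annotate as protein-coding. Of the 353 target genes found in RefSeq, 291 (82.4%) were annotated as protein-coding, 45 (12.7%) as pseudogenes, 6 (1.7%) as transcribed pseudogenes and 10 (2.83%) as lncRNA genes. Of the 61 pseudogenes and lncRNA genes, 29 had a target transcript with a p and 6 had one with a p under 1. A p under 0.05 was listed for a transcript of 1 of these genes, LOC102184946. Among all 816 target transcripts, counted by transcript and not by gene, 36 (4.41%) had such a p. The authors' deposited table lists the transcript of LOC102184946 as lower with p = 0.03435. Its Benjamini-Hochberg adjusted p over the 816 target transcripts was 0.863.

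Purine metabolism, the other pathway of both genes, was annotated to 7 target genes with 30 target transcripts and 9 called lncRNAs, and TCONS_00181758 of PRPSAP1 was the 1 transcript with p under 0.05. This share of 1 in 30 is near the 4.41% of all target transcripts. The other 5 genes were ADAL, ATCAY, ERBB2IP, HELZ and PDE4DIP. ADAL encodes a protein related to adenosine deaminase. Its lncRNA TCONS_00232883, 11783 bp away, was listed at 0 in T (q = 0.713 in the authors' deposited table), and the smallest p of the gene's own transcripts was 0.534. PDE4DIP, whose product binds a phosphodiesterase, lay 4740 bp from TCONS_00335517, which was listed at 0 in C (q = 0.215 in the authors' deposited table), and its smallest p was 0.289. The lncRNAs of HELZ and ERBB2IP were also listed at 0 in C, and that of ATCAY had a log2 change of 3.56 (q = 0.894 in the authors' deposited table). These genes were chosen after their values were seen.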
